A study of Mus musculus with 8 samples.

Results

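The genes described here encode the transport machinery of the primary cilium, the single sensory antenna that stands on most resting cells. They were chosen by name: protein-coding genes whose symbol is Ift or Bbs followed by a number, with Arl13b, Kif3a, Kif3b, Dync2h1, Tulp3, Cep164 and Cys1 added. The rule found 29 genes among the 21620 protein-coding genes of the table, 14 of them Ift genes, 8 Bbs genes and 7 named singly. RNA had been measured in EpCAM+ cells, the epithelial cells of the bile ducts, sorted from the liver of adult males of strain C57/B6, described as healthy, and then grown as organoids. There were 2 libraries of freshly isolated cells, 2 of cells kept for 12 h in Matrigel with organoid medium, 1 of cells kept for 24 h, 1 titled 48h whose other labels give 24 h, and 2 of organoids after 6 days in that culture. All 8 libraries carry the same strain and sex, the labels name no transgene and no agent beyond the medium, and nothing in the labels says whether replicates came from separate animals, so the p-values measure only library-to-library spread, which may be technical. In bulk RNA, fewer cells of a type and less RNA per cell cannot be told apart.

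A cilium is built and kept up by intraflagellar transport, in which trains of IFT-B and IFT-A proteins ride along the axoneme. The motor kinesin-2 carries them to the tip and dynein-2 brings them back, while the BBSome, a coat of Bbs proteins put together with the help of chaperonin-like Bbs proteins, moves membrane proteins out of the cilium. On cholangiocytes the cilium senses bile flow and composition, and defects in many ciliary genes cause biliary and renal cysts in mice and humans. Cells take their cilium down before they divide, since the centrioles at its base are needed at the spindle.

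Levels are in RPKM, read counts scaled to gene length and to library depth, and the depth recovered from the values was 13823488 to 28460741 reads per library. The 24 h library stood apart: 18.0% of the 12900 genes tested were listed at 0 there, against 1.19% to 9.96% in the other 7 libraries. Epcam, the sorting antigen, was at 513 to 1175 RPKM and Krt19, a bile duct keratin like Krt7, at 162 to 1920 RPKM over the 8 libraries. Hepatocyte markers were highest in fresh cells, where the 8 of them summed to 837 and 892 RPKM, with 38.5 and 51.1 RPKM at 12 h, 47.9 RPKM at 24 h, 155 RPKM under the title 48h and 7.03 and 12.7 RPKM in organoids. Summed over 8 markers each, mesenchymal genes reached 13.7 RPKM, endothelial genes 4.85 RPKM and immune genes 29.4 RPKM at most. In each fresh library 3 of the 8 immune and 2 of the 8 mesenchymal genes were at 1 RPKM or more. In each organoid library 3 of the 8 immune and 0 of the 8 mesenchymal genes were. The immune sum was 27.2 RPKM under the title 48h and 25.7 and 11.4 RPKM in organoids. Within these lists Ptprc and Pdgfrb were at or near 0 throughout, while other genes were not. In organoids against fresh cells, by the limma test described below, 6 of 6 tested hepatocyte markers fell and 1 of 9 ductal markers rose. That 1 was Krt7, at 810 and 409 RPKM in organoids and 103 and 59.5 RPKM in fresh cells. The median log2 difference of the 9 ductal markers was −0.87, against 0.17 over all genes, and 2 of the 9 were above 0. No call was made among the 3 immune, 2 mesenchymal and 1 endothelial genes tested. At 12 h the immune gene Csf1r and the endothelial gene Eng fell, with log2 differences of −2.77 and −1.55 (limma adjusted p = 0.0308 and 0.0395). There 1 of the 3 immune genes was above 0. At 24 h the fitted differences of Csf1r and Cd68 were −2.54 and −3.80. The part of these other cells in the results on transport genes was not tested.

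The promoters of ciliary genes are known for the X-box, a pair of inverted short cores bound by RFX transcription factors. RefSeq (GRCm38.p6) gave a promoter, from 250 bases before to 50 bases after the start site, for 26 of the 29 genes. The RFX core GTTGCC, on either strand, was in 12 of the 26 promoters (46.2%), and in 12.5% of the 32851 promoters in the table. Paired cores, GTNNCC and GGNAAC or GTTNCC and GGNNAC with 0 to 3 bases between them, were in 5 of the 26 (19.2%) and in 2.34% of all promoters. Those 5 are shown on the gene's strand, 5′ to 3′, with the paired sites in capitals, because they hold the fullest match to the X-box; the other 21 promoters had no such pair. Bbs1 lies at chr19:4906598-4906641 (−), Bbs4 at chr9:59353459-59353500 (−), Bbs7 at chr3:36613482-36613525 (−), Ift22 at chr5:136908072-136908145 (+) and Ift57 at chr16:49699192-49699261 (+), the last 2 with 2 pairs each.
Bbs1: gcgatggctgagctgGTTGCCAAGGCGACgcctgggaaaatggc
Bbs4: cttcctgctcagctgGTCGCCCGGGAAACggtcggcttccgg
Bbs7: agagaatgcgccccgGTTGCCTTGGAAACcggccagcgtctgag
Ift22: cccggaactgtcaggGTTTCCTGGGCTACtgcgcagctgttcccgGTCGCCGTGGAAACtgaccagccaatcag
Ift57: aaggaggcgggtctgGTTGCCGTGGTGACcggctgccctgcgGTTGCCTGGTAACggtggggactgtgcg
The core GTTGCC can be part of a paired site. A CCAAT box, on either strand, was in 17 of the 26 promoters (65.4%), against 37.4% of all promoters, and the E2F-type site TTCCCGC was in 1 (3.85%), the promoter of Ift140, against 4.60% of all. These are matches of letters and say nothing of binding in these cells.

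The transport genes were expressed at low to moderate levels in every state. The median over the 29 genes of their 8-library mean was 4.44 RPKM, below the 7.97 RPKM of protein-coding genes that reached 1 RPKM in at least 2 libraries, and 9 of the 29 lay above that value. The highest mean was that of the IFT-A gene Ift43, at 85.2 RPKM, and the lowest that of Dync2h1, the heavy chain of dynein-2, at 0.727 RPKM. All 29 passed the filter for testing, and 15 were at 1 RPKM or more in all 8 libraries. Genes at 1 RPKM or more numbered 23 and 21 in fresh cells, 22 and 23 at 12 h, 20 at 24 h, 26 in that titled 48h and 24 and 27 in organoids.

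**Figure D1:**
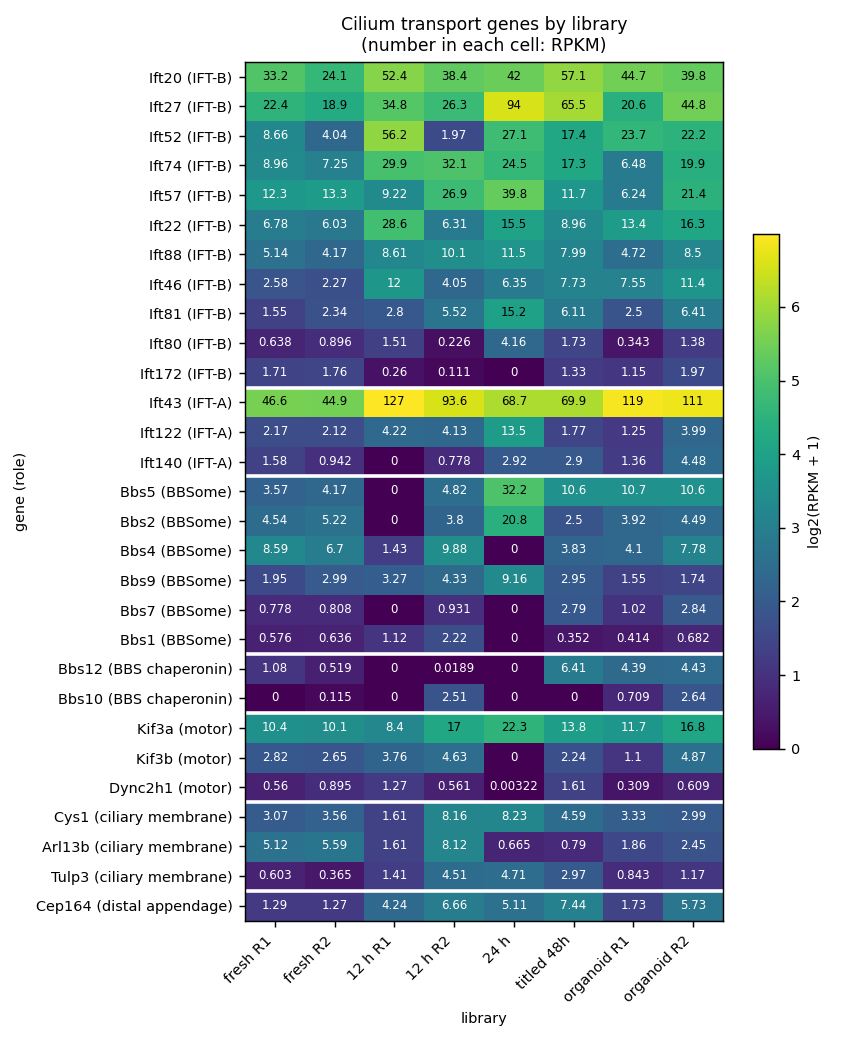
Level of each of the 29 transport genes (rows, grouped by role) in the 8 libraries (columns, in order of culture). Colour gives log2(RPKM + 1) and the number in each cell the RPKM; Ift43, Ift20 and Ift27 are high in every library, and the zeros gather in 12 h R1 and the 24 h library.

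The summed RPKM of the transport genes was higher in each cultured library than in either fresh one, while the median over the 29 genes was higher in 5 of the 6. Summed over 29 genes, transport RNA came to 199 and 179 RPKM in fresh cells, 395 and 329 RPKM at 12 h, 468 RPKM at 24 h, 340 RPKM in the one titled 48h and 301 and 384 RPKM in organoids. The 20 division genes, such as Mki67 and Cdk1, summed to 12.5 and 23.5 RPKM in fresh cells, 28.1 and 16.2 RPKM at 12 h and 24.0 RPKM at 24 h, then 867 RPKM in the one titled 48h and 366 and 630 RPKM in organoids. All 6 cultured libraries thus lay above both fresh ones in summed transport RNA, whether division genes were low or high, and the 3 libraries with high division genes (301 to 384 RPKM) overlapped the 3 first-day ones (329 to 468 RPKM). The 3 genes of highest mean, Ift43, Ift20 and Ift27, gave 43.7% to 61.3% of the sum in each library, and the other 26 summed to 116 to 264 RPKM in culture and 90.6 and 97.0 RPKM in fresh cells. The median over the 29 genes was 2.82 and 2.99 RPKM in fresh cells, 2.80 and 4.63 RPKM at 12 h, 8.23 RPKM at 24 h, 4.59 RPKM in the one titled 48h and 3.33 and 4.87 RPKM in organoids, so that 12 h R1, with 6 of the 29 at 0, lay below both fresh libraries. The median of all genes tested was also above the fresh values of 4.93 and 4.77 RPKM in 5 of the 6 cultured libraries, at 5.59 to 6.68 RPKM, and below them in organoid R1, at 4.39 RPKM. Ift genes made up the larger share of the sum, with 250 to 367 RPKM in culture and 133 to 154 RPKM in fresh cells. Bbs genes summed to 21.1 and 21.2 RPKM in fresh cells, 5.82 and 28.5 RPKM at 12 h, 62.1 RPKM at 24 h, 29.5 RPKM in the one titled 48h and 26.8 and 35.2 RPKM in organoids. The 20 DNA replication genes, which rise earlier in the cycle, summed to 83.6 and 104 RPKM in fresh cells, 166 and 189 RPKM at 12 h, 414 RPKM at 24 h, 936 RPKM in the one titled 48h and 308 and 584 RPKM in organoids. At 24 h against fresh cells their median fitted log2 difference was 1.43, with 13 of 20 above 0. For the division genes it was −0.23, with 3 of 20 above 0, though Cdk1 stood at 2.44 and Birc5 at 2.20. No test was made of these sums.

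**Figure D2:**
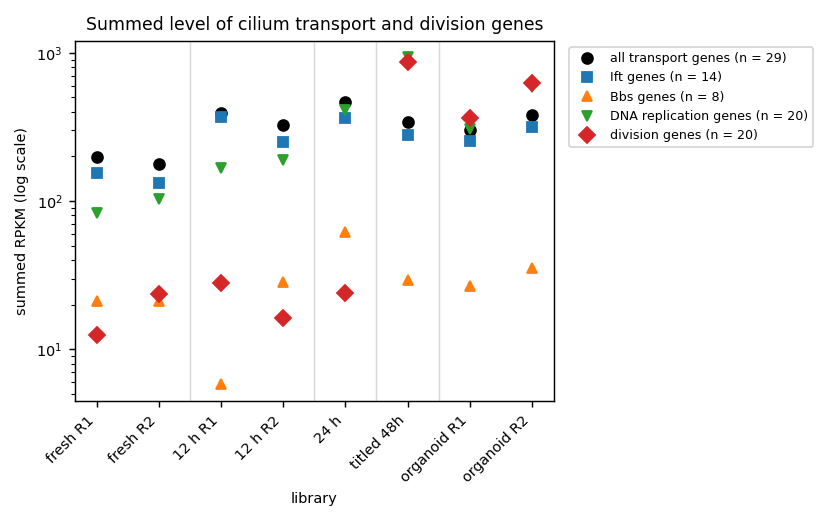
Summed RPKM (log axis) of all 29 transport genes, of the 14 Ift and 8 Bbs genes among them, and of 20 DNA replication and 20 division genes, in each of the 8 libraries. Division genes lie between 12.5 and 28.1 RPKM in the fresh, 12 h and 24 h libraries and between 366 and 867 RPKM in the other 3, while transport genes stay between 179 and 468 RPKM.

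Organoids were set against fresh cells to ask how the machinery stood once a growing epithelium had formed. By limma on log2(RPKM + 1) with Benjamini-Hochberg adjustment over the 12900 genes, 2 of the 29 rose, Ift43 and Bbs12, and 0 fell; over all genes tested 10.1% were called, 5.15% as higher and 4.94% as lower. At an unadjusted p under 0.05 there were 3 higher and 0 lower of the 29, against 17.4% higher and 12.1% lower of all genes. The share of transport genes called was therefore near the background in the higher direction. The median fitted difference was 0.44 over the 29 genes and 0.17 over all genes on the log2(RPKM + 1) scale, a scale that understates changes of low genes, and 19 of the 29 differences were above 0 (56.0% of all genes). The median rested on single libraries: without organoid R2 it was 0.021 (all genes −0.047), with 16 of the 29 above 0, and without organoid R1 it was 0.70 (all genes 0.34), with 24 of the 29 above 0. Organoid values lay wholly above the fresh ones for 13 of the 29 (38.1% of all genes) and wholly below for 3 (26.6% of all genes), which were Arl13b, Bbs2 and Bbs9. In the same comparison 19 of the 20 division genes and 6 of the 20 DNA replication genes rose.

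The IFT-B genes build the train that carries tubulin to the tip. Ift88, without which mouse cilia fail to form, was at 4.72 and 8.50 RPKM in organoids, against 5.14 and 4.17 RPKM in fresh cells. These overlapped, and the fitted log2 difference was 0.39 with a 95% interval of −0.67 to 1.45 (limma adjusted p = 0.604). Ift20, which also works at the Golgi to send membrane cargo towards the cilium, was at 44.7 and 39.8 RPKM in organoids and 33.2 and 24.1 RPKM in fresh cells. Both organoid values were higher, yet the log2 difference of 0.56 (SE 0.35) did not pass (limma adjusted p = 0.336). None of the 11 IFT-B genes was called, and 9 of 11 had fitted differences above 0. The largest fitted difference among the IFT-B genes, chosen after its values were seen, was that of Ift52, at 23.7 and 22.2 RPKM in organoids and 8.66 and 4.04 RPKM in fresh cells, with a log2 difference of 1.78 (SE 1.25, limma adjusted p = 0.388). The fit gave each gene 1 spread estimate for all groups. The 12 h values of Ift52, 56.2 and 1.97 RPKM, therefore entered that SE.

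The IFT-A genes serve the return journey and the entry of membrane proteins. Ift43 was at 119 and 111 RPKM in organoids, against 46.6 and 44.9 RPKM in fresh cells. Both organoid values were above both fresh ones, and the means of 115 ± 5.52 RPKM and 45.8 ± 1.20 RPKM (SD, n = 2 each) stood 2.52-fold apart. The log2 difference was 1.32 (SE 0.32, limma adjusted p = 0.0488), a call close to the threshold that ended in 12 of 15 alternatives, with adjusted p between 0.0428 and 0.290. Ift43 lies on GRCm38 at chr12:86082541-86162459 (+). Ift140, a core subunit of IFT-A, was at 1.36 and 4.48 RPKM in organoids and 1.58 and 0.942 RPKM in fresh cells. The organoid values straddled the fresh ones, and the log2 difference of 0.68 (SE 0.56) did not pass (limma adjusted p = 0.460).

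The 6 BBSome genes gave no call, and their organoid values lay above, below or across the fresh ones. Bbs5 was at 10.7 and 10.6 RPKM in organoids, against 3.57 and 4.17 RPKM in fresh cells, and Bbs7 at 1.02 and 2.84 RPKM, against 0.778 and 0.808 RPKM. Both lay wholly above the fresh values, with log2 differences of 1.26 (SE 0.80, limma adjusted p = 0.343) and 0.64 (SE 0.49, limma adjusted p = 0.434). Bbs9 was at 1.55 and 1.74 RPKM in organoids, against 1.95 and 2.99 RPKM in fresh cells, wholly below (log2 −0.38, SE 0.44, limma adjusted p = 0.611). Bbs1, the subunit that binds membrane cargo and the small GTPase Arl6, was at 0.414 and 0.682 RPKM in organoids and 0.576 and 0.636 RPKM in fresh cells. Bbs2, a subunit of the BBSome's head, was at 3.92 and 4.49 RPKM in organoids and 4.54 and 5.22 RPKM in fresh cells. Bbs4, which links the BBSome to centriolar satellites, was at 4.10 and 7.78 RPKM in organoids and 8.59 and 6.70 RPKM in fresh cells. The values overlapped for Bbs1 and Bbs4, and those of Bbs2 lay just below the fresh ones. The log2 difference was −0.06 (SE 0.35) for Bbs1, −0.18 (SE 0.75) for Bbs2 and −0.36 (SE 0.76) for Bbs4, with limma adjusted p values from 0.787 to 0.932. Bbs4 shares 194 exon bases, 3.21% of its exons, with Adpgk on the other strand, and Ift57 and Ift88 share some with antisense genes.

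Bbs12 encodes a chaperonin-like protein that, with Bbs10 and Mkks, helps fold Bbs7 and starts BBSome assembly. It was at 4.39 and 4.43 RPKM in organoids, from 148 and 218 reads, against 1.08 and 0.519 RPKM in fresh cells, from 40.0 and 36.0 reads. The organoid mean of 4.41 ± 0.0242 RPKM was 5.53-fold the fresh mean of 0.798 ± 0.394 RPKM (SD, n = 2 each), and the groups did not overlap. The log2 difference was 1.61 (SE 0.38, limma adjusted p = 0.0453), and the call ended in 9 of 14 alternatives, with adjusted p between 0.0301 and 0.290. Bbs12 lies on GRCm38 at chr3:37312554-37321453 (+) and shares 32 exon bases, 1.31% of its exons, with Cetn4 on the other strand; no source used here says whether counting used strand. Cetn4 was at 0.484 and 0.699 RPKM in organoids and 0.358 and 0.558 RPKM in fresh cells, and at 0 in the library titled 48h, where Bbs12 was at its highest.

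The partners of Bbs12 were read beside it. Bbs10 was at 0.709 and 2.64 RPKM in organoids, against 0 and 0.115 RPKM in fresh cells. Mkks, which the rule by name does not take, was at 17.1 and 16.1 RPKM in organoids, against 2.23 and 2.24 RPKM in fresh cells. Both organoid libraries were above both fresh ones for each of the 3 chaperonin-like genes. Mkks rose by a log2 difference of 2.44 (SE 0.37, limma adjusted p = 0.0163). The 3 genes did not run together in the lone libraries. Against fresh cells the fitted difference of Mkks was 2.30 at 24 h, where Bbs10 and Bbs12 were at 0. Under the title 48h it was 2.51, with Bbs10 at 0. Bbs10, with 12 h values at 0 and 2.51 RPKM, did not pass in the comparison of organoids with fresh cells.

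The motors and the ciliary membrane genes gave no call either. Kif3a, a motor subunit of kinesin-2, was at 11.7 and 16.8 RPKM in organoids and 10.4 and 10.1 RPKM in fresh cells. Its partner Kif3b was at 1.10 and 4.87 RPKM in organoids and 2.82 and 2.65 RPKM in fresh cells. Dync2h1 was at 0.309 and 0.609 RPKM in organoids and 0.560 and 0.895 RPKM in fresh cells. Only Kif3a was separated between the groups, by a log2 difference of 0.42 (SE 0.45, limma adjusted p = 0.575), against −0.09 (SE 0.58) for Kif3b and −0.24 (SE 0.36) for Dync2h1. Arl13b, a small GTPase of the ciliary membrane, was at 1.86 and 2.45 RPKM in organoids and 5.12 and 5.59 RPKM in fresh cells. It was the lowest of the 29 by fitted log2 difference, at −1.01, and both organoid values were below both fresh ones, but its 95% interval ran from −2.56 to 0.53 (limma adjusted p = 0.343). Tulp3, which brings receptors into the cilium with IFT-A, was at 0.843 and 1.17 RPKM in organoids and 0.603 and 0.365 RPKM in fresh cells. Cys1, or cystin, a lipid-anchored protein whose loss causes cystic kidneys in the cpk mouse, was at 3.33 and 2.99 RPKM in organoids and 3.07 and 3.56 RPKM in fresh cells. Cep164, which sits on the distal appendages where the mother centriole docks to the membrane, was at 1.73 and 5.73 RPKM in organoids and 1.29 and 1.27 RPKM in fresh cells. For Tulp3, Cys1 and Cep164 the log2 differences were 0.44 (SE 0.51), −0.05 (SE 0.65) and 0.91 (SE 0.57), and none passed.

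**Figure D3:**
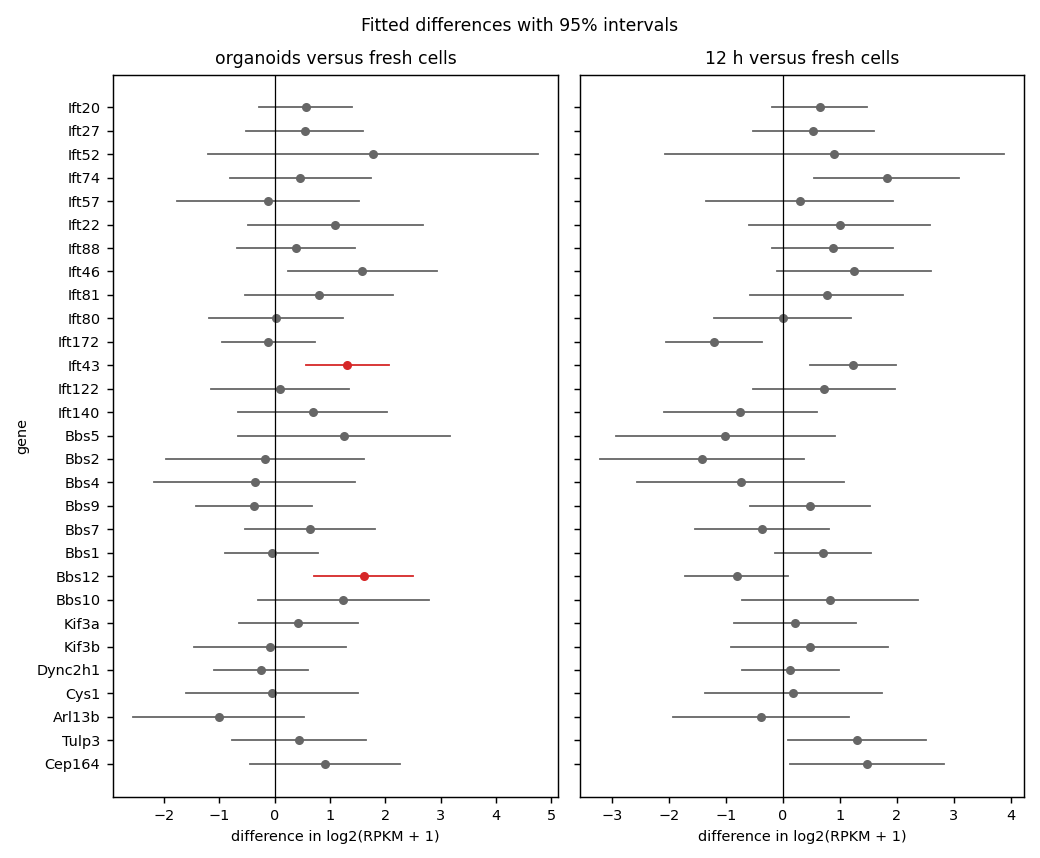
Fitted difference in log2(RPKM + 1) of each of the 29 genes with its 95% interval, for organoids and for 12 h cultures, each against fresh cells; red marks an adjusted p under 0.05. Ift43 and Bbs12 are the only genes in red, both in organoids, and most intervals cross 0.

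The 12 h cultures were set against fresh cells to ask what the machinery did before division. By limma with Benjamini-Hochberg adjustment 0 of the 29 were called, against 6.81% of all genes, and 5 had an unadjusted p under 0.05, against 27.1% of all genes. These 5, named because the count is small and so after their values were seen, were Ift43, Ift74, Tulp3 and Cep164 on the higher side and Ift172 on the lower. The median fitted difference was 0.47 over the 29 genes and 0.24 over all genes. Values at 12 h lay wholly above the fresh ones for 13 of the 29 (38.6% of all genes) and wholly below for 4 (23.6% of all genes).

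Ift43 was at 127 and 93.6 RPKM at 12 h, against 46.6 and 44.9 RPKM in fresh cells. Its log2 difference was 1.23 (SE 0.32, limma adjusted p = 0.0654). At 24 h Ift43 was at 68.7 RPKM and under the title 48h at 69.9 RPKM, between its fresh and its 12 h values. Ift74, a tubulin-binding core subunit, was at 29.9 and 32.1 RPKM at 12 h and 8.96 and 7.25 RPKM in fresh cells, a log2 difference of 1.82 (SE 0.53, limma adjusted p = 0.0895). Tulp3 was at 1.41 and 4.51 RPKM at 12 h, against 0.603 and 0.365 RPKM in fresh cells, and Cep164 at 4.24 and 6.66 RPKM, against 1.29 and 1.27 RPKM. All 4 were above the fresh range in both 12 h libraries, and none passed.

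The remaining genes named by rule were read at 12 h beside the fresh values given above. Ift20 was at 52.4 and 38.4 RPKM, Ift88 at 8.61 and 10.1 RPKM and Kif3b at 3.76 and 4.63 RPKM, all above the fresh range, and Bbs1, at 1.12 and 2.22 RPKM, was too. Kif3a was at 8.40 and 17.0 RPKM, Dync2h1 at 1.27 and 0.561 RPKM, Arl13b at 1.61 and 8.12 RPKM and Cys1 at 1.61 and 8.16 RPKM. Each of these 4 pairs had 1 value above and 1 below the fresh mean. Ift140 was at 0 and 0.778 RPKM, below the fresh range.

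Ift172, a long peripheral subunit of IFT-B, known from Chlamydomonas to act in the turnaround at the tip, was lower. It was at 0.260 and 0.111 RPKM at 12 h, from 36.0 and 16.0 reads, against 1.71 and 1.76 RPKM in fresh cells, from 173 and 331 reads. The log2 difference was −1.21 (SE 0.35, limma adjusted p = 0.0883), and with libraries centred on their medians it passed (limma adjusted p = 0.0414; range over its 14 alternatives 0.0414 to 0.336). Centring moved the median of all genes from 0.24 to −0.13 in this comparison, and with it the median of the 29 from 0.47 to 0.11. At 24 h Ift172 was listed at 0, which at that depth allows up to 0.0236 RPKM, and it stood at 1.33 RPKM in that titled 48h and 1.15 and 1.97 RPKM in organoids. The 3 first-day libraries were thus all below the other 5.

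**Figure D4:**
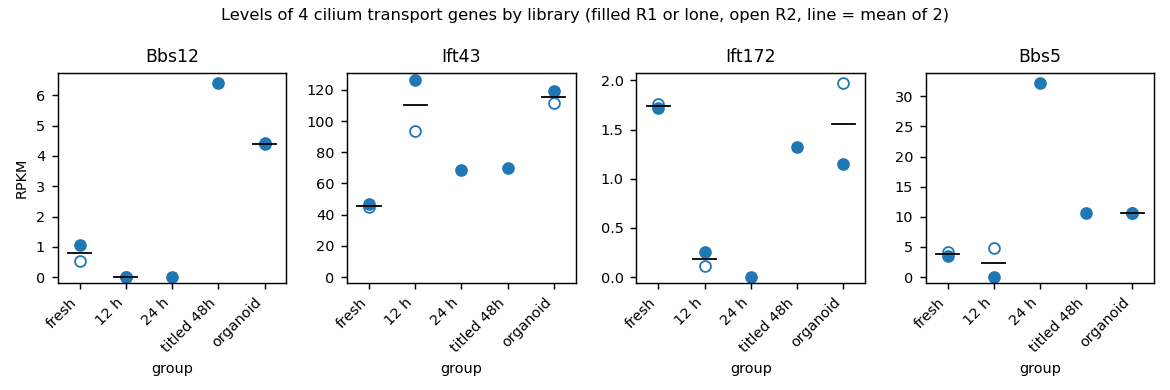
RPKM of Bbs12, Ift43, Ift172 and Bbs5 by group, with filled points for R1 and for lone libraries, open points for R2 and a line at the mean of a pair. At 12 h and 24 h Bbs12 is at or near 0 and Ift172 at or under 0.260 RPKM. Ift43 is higher in every cultured library than in fresh cells, and Bbs5 reaches 32.2 RPKM at 24 h.

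The 12 h libraries agreed poorly with each other on the Bbs genes. In 12 h R1, 6 of the 29 genes were listed at 0, namely Bbs2, Bbs5, Bbs7, Bbs10, Bbs12 and Ift140, and in 12 h R2 none was. Of all genes tested 9.96% were at 0 in 12 h R1 and 8.88% in 12 h R2, against 1.99% and 1.19% in fresh cells. Bbs2 was at 0 and 3.80 RPKM, Bbs5 at 0 and 4.82 RPKM, and Bbs4 at 1.43 and 9.88 RPKM in the pair. A count of 0 allows up to 0.0433 RPKM for Bbs2 and 0.0586 RPKM for Bbs5 at the depth of 12 h R1, counting error only. Of the 29 genes, 12 differed by more than 1 log2 unit between the 12 h libraries (41.4%, against 27.5% of all genes tested), 9 between the organoid libraries (31.0%, against 28.3%) and 0 between the fresh ones (against 5.28%). The widest gap at 12 h was that of Ift52, at 56.2 and 1.97 RPKM. As each gene had 1 spread estimate for all groups, such gaps widened the intervals of genes like Bbs2, Bbs5 and Ift52 in every comparison. The interval of Bbs2 at 12 h against fresh cells ran from −3.21 to 0.37, and it was equally wide in organoids against fresh cells. Not every Bbs gene had so wide an interval.

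**Figure D5:**
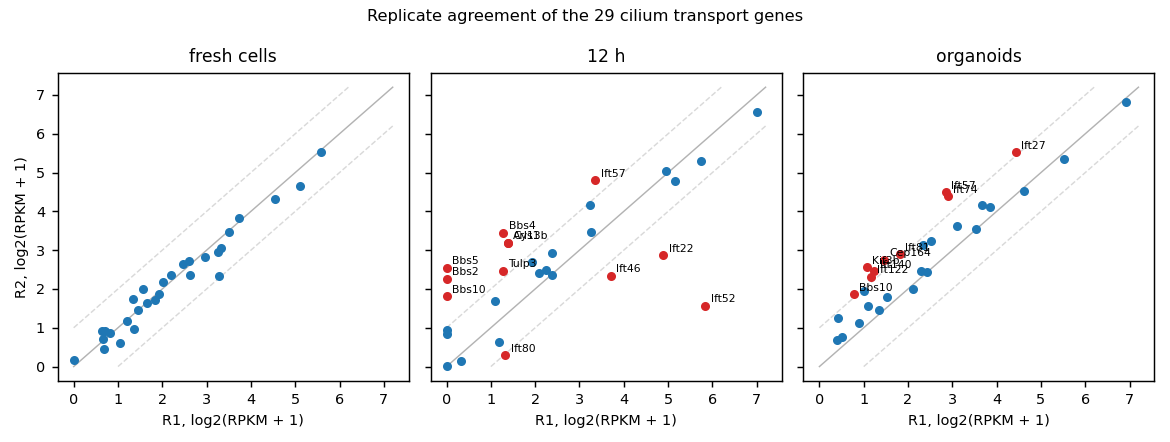
Each of the 29 genes in R1 (horizontal) and R2 (vertical) as log2(RPKM + 1), for fresh cells, 12 h cultures and organoids; dashed lines mark a difference of 1 log2 unit and red points lie beyond it. None lies beyond it in fresh cells, 12 do at 12 h and 9 in organoids.

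The lone 24 h library held zeros beside peak values. The BBSome subunits Bbs1, Bbs4 and Bbs7, the chaperonin-like Bbs10 and Bbs12, and Ift172 and Kif3b were listed at 0, while Bbs2 at 20.8 RPKM, Bbs5 at 32.2 RPKM and Bbs9 at 9.16 RPKM were at their highest of the series. So 5 of 8 Bbs genes were at 0 in a library in which the other 3 peaked. Of the other genes, Ift88 was at 11.5, Ift20 at 42.0, Ift140 at 2.92, Kif3a at 22.3, Tulp3 at 4.71, Cys1 at 8.23 and Cep164 at 5.11 RPKM, with Arl13b at 0.665 and Dync2h1 at 0.00322 RPKM. Set against fresh cells by limma, assuming that this library varied like the replicated groups, 0 of the 29 were called (10.9% of all genes) and 11 had an unadjusted p under 0.05 (32.1% of all genes), 7 higher and 4 lower (14.8% and 17.3% of all genes). The median fitted difference was 1.10 over the 29 genes and −0.07 over all genes. With 18.0% of the tested genes at 0 in this library, the part of its recovery of RNA in these values was not tested.

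In the library titled 48h, where division genes were at their highest, the transport genes were all detected but Bbs10. By limma against fresh cells, again for a lone library, 0 of the 29 were called (3.31% of all genes) and 3 had an unadjusted p under 0.05 (23.5% of all genes), Ift27, Bbs12 and Cep164, all higher. Bbs12 was at 6.41 RPKM from 342 reads, with a log2 difference of 2.06 (SE 0.46, limma adjusted p = 0.0643). Cep164 was at 7.44 RPKM, its highest value, and Ift27, a small GTPase-like subunit that helps the BBSome leave the cilium, at 65.5 RPKM. Ift88 was at 7.99, Ift20 at 57.1, Ift140 at 2.90, Bbs1 at 0.352, Bbs2 at 2.50 and Bbs4 at 3.83 RPKM. Kif3a was at 13.8, Kif3b at 2.24, Dync2h1 at 1.61, Arl13b at 0.790, Tulp3 at 2.97 and Cys1 at 4.59 RPKM. Of these 12, Ift20 and Dync2h1 were at their highest of the series.

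The start of division was read by setting the 3 later libraries (titled 48h and organoids) against the 3 first-day ones (12 h and 24 h). The split follows the titles, and DNA replication genes already summed to 414 RPKM at 24 h, against 83.6 and 104 RPKM in fresh cells. Of the 29 genes 1 rose, Bbs12, and 0 fell by limma with Benjamini-Hochberg adjustment, against 3.29% of all genes higher and 0.977% lower; at an unadjusted p under 0.05 there were 3 higher and 3 lower, against 13.9% and 9.16% of all genes, so near the background in both directions. In the same contrast 19 of 20 division genes and 4 of 20 DNA replication genes rose. The median fitted difference was −0.08 over the 29 transport genes and 0.03 over all genes, and 13 of the 29 were above 0 (51.7% of all genes). Neither its size nor its sign was stable: the median of the 29 was −0.28 without 12 h R1, −0.0070 without 12 h R2, −0.22 without organoid R2, 0.041 without organoid R1, −0.026 without the 24 h library and 0.059 with libraries centred on their medians. Later values lay wholly above the first-day ones for 3 genes, Bbs7, Bbs12 and Ift172 (11.0% of all genes), and wholly below for 4, Ift74, Ift88, Ift122 and Bbs9 (8.13% of all genes).

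Bbs12 gave the clearest step in that contrast. It reached 6.41 RPKM under the title 48h and 4.39 and 4.43 RPKM in organoids, against 0 and 0.0189 RPKM at 12 h and 0 at 24 h. A single read accounted for the value of 12 h R2, and the zeros allow up to 0.0588 RPKM in 12 h R1 and 0.0642 RPKM at 24 h. The log2 difference was 2.58 (SE 0.31, limma adjusted p = 0.0150), and it was 2.57 (limma adjusted p = 0.0275) with the 24 h library left out, a check chosen after seeing the data. The call ended when only the groups compared entered the fit and when either fresh library was left out, with the adjusted p between 0.0114 and 0.123 over 15 alternatives. Organoids against 12 h alone, with 1.38% of all genes called as higher, gave Bbs12 as the 1 call among the 29 (log2 2.42, SE 0.38, limma adjusted p = 0.0380), and that call ended in 11 of 14 alternatives. The comparisons against fresh cells share the 2 fresh libraries.

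Ift88 and Ift74 were lower in the later libraries than on the first day without a call. Ift88 was at 7.99 RPKM under the title 48h and 4.72 and 8.50 RPKM in organoids, against 8.61 and 10.1 RPKM at 12 h and 11.5 RPKM at 24 h. Ift74 was at 17.3, 6.48 and 19.9 RPKM in the later libraries, against 29.9, 32.1 and 24.5 RPKM on the first day, a log2 difference of −1.06 (SE 0.44, limma adjusted p = 0.210). In organoid R1 Ift88 lay within its fresh range of 4.17 to 5.14 RPKM and Ift74 below its own of 7.25 to 8.96 RPKM, and the other cultured libraries were above those ranges.

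The rest of the ciliary apparatus was read from lists of known genes, by counts at a limma adjusted p under 0.05 in organoids against fresh cells, where the median of all genes was 0.17. Of 18 tested IFT, BBSome and assembly factors listed under other symbols 1 rose, Mkks, and 0 fell (median log2 difference 0.43). Of 17 transition zone genes, whose products gate the base of the cilium, 2 rose and 0 fell (median 0.53). B9d1 was at 41.5 and 55.3 RPKM in organoids, against 9.79 and 12.7 RPKM in fresh cells, and Tmem107 at 11.6 and 12.7 RPKM, against 1.77 and 3.16 RPKM. Of 12 basal body and distal appendage genes 1 rose, Cby1, a centriolar protein that helps ciliary vesicles form, at 34.7 and 37.0 RPKM in organoids, against 8.79 and 4.80 RPKM in fresh cells. The median of the basal body and distal appendage genes was 0.86. Of 19 genes of ciliary membrane trafficking 2 rose, the lipid-cargo carriers Pde6d and Unc119, and 0 fell (median 0.55). Of 10 kinesin-2 and dynein-2 partners 1 rose, Dynll1, a light chain also used by cytoplasmic dynein (median 1.25). Over all genes tested 5.15% were called as higher and 4.94% as lower in this comparison, and nothing is read from the small counts of these lists.

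Of 12 genes known to suppress or take down the cilium 4 rose in organoids against fresh cells and 0 fell, where 5.15% of all genes were called as higher. The 4 were Plk1, Aurka, Nek2 and Plk4, all of which also act in mitosis or centriole duplication, and the other 8 did not pass. Plk1 was at 15.4 and 59.0 RPKM in organoids and 0.0596 and 0.224 RPKM in fresh cells, a log2 difference of 4.78 (SE 0.66, limma adjusted p = 0.0135). Aurka, the kinase that triggers removal of the axoneme, was at 20.3 and 44.5 RPKM in organoids and 1.01 and 0.666 RPKM in fresh cells, a log2 difference of 4.09 (SE 0.52, limma adjusted p = 0.0119). Both kinases were at or under 0.0947 RPKM in the 3 first-day libraries, and at 73.6 RPKM for Plk1 and 73.0 RPKM for Aurka in the library titled 48h. In the later libraries against the first-day ones 3 of the 12 rose, Plk1, Aurka and Nek2, where 3.29% of all genes were called as higher.

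Regulators and downstream pathways gave few calls. Of 7 tested RFX and related regulators 0 passed in organoids. Rfx3, which drives ciliary genes through the X-box, was below the filter and was not tested. It was at 0.485 and 0.529 RPKM in organoids and 0.671 and 0.490 RPKM in fresh cells. Of 3 tested Hedgehog genes, a pathway that signals through the cilium, 0 passed. Pkhd1, the gene of fibrocystin, a ciliary membrane protein of ducts mutated in recessive polycystic disease, was at 3.01 and 1.98 RPKM in organoids, against 9.28 and 14.6 RPKM in fresh cells (log2 −1.87, SE 0.47, limma adjusted p = 0.0544). It fell at 12 h, to 0.274 and 0.765 RPKM, by 3.08 on the log2 scale (SE 0.47, limma adjusted p = 0.0278). Among these ciliary lists the other calls at 12 h against fresh cells, named after their values were seen, were Tmem231, Pde6d and Ptch1 as higher and Wdpcp and Rfx5 as lower.

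Genes of motile cilia were mostly below the filter. Of 20 motile cilium and multiciliated cell genes 3 were tested, and 0 of them passed in organoids against fresh cells. In later against first-day libraries 1 of the 3 rose, Rsph1, by a log2 difference of 2.34 (SE 0.38, limma adjusted p = 0.0274). It also rose in organoids against 12 h, by 2.59 (SE 0.46, limma adjusted p = 0.0490). Rsph9 had a fitted difference of −3.53 at 24 h against fresh cells. Foxj1, a master regulator of motile cilia, was at 9.07 and 28.8 RPKM in organoids and 4.52 and 4.27 RPKM in fresh cells (log2 1.68, SE 0.61, limma adjusted p = 0.127). Mcidas and Gmnc, which commit cells to the multiciliated fate, were listed at 0 in all 8 libraries. The 20 genes summed to 34.4 and 51.2 RPKM in organoids and 46.9 and 42.6 RPKM in fresh cells.

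Bbs12 and Ift172 were at or under 0.260 RPKM in all 3 first-day libraries, and a gene outside the 29 was listed at 0 in all 3. Of all genes tested 9.96% and 8.88% were at 0 in the 12 h libraries and 18.0% at 24 h. The share at 0 in all 3 was not counted. Ttc30b, an IFT-B gene picked after its values were seen, was at 1.67 RPKM under the title 48h and 2.17 and 4.72 RPKM in organoids, against 0 in all 3 first-day libraries. It was at 1.32 and 1.50 RPKM in fresh cells, and rose in later against first-day libraries by a log2 difference of 1.86 (SE 0.34, limma adjusted p = 0.0357). Ttc30b has near-identical copies, Ttc30a1 and Ttc30a2, among which reads could have been split, so its values are uncertain.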

How the data were processed

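RNA had been extracted with a micro column kit, copied by Smart-seq2 and tagmented with Nextera XT, per the labels' protocols. The deposited table gives RPKM for 47729 gene identifiers in 8 libraries; per the submitters' processing notes the build was GRCm38 and edgeR was used, while the aligner, the counter, strandedness and filters are named in no source used here. Symbols came from GENCODE M21, which named 47224 identifiers. Reads per library were recovered from the steps of the RPKM values, of which 88.6% to 92.4% of small values were whole within 0.01; 3 reads, the most a count of 0 allows, equal 0.0527 to 0.109 RPKM in a 2 kb gene, counting error only.

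From the deposited values log2(RPKM + 1) was computed with no further scaling. The 12900 genes that reached 1 RPKM in 2 or more libraries were tested with limma 3.58.1 in R 4.3.3: 1 coefficient for each of 5 groups, moderated variances with trend, 3 residual and 3.65 prior degrees of freedom, two-sided p adjusted by Benjamini-Hochberg within each of 6 comparisons, threshold 0.05. The procedure was tested on simulated data. Same-numbered libraries deviated together between fresh and 12 h (r = 0.28) and fresh and organoid libraries (r = 0.27) but not between 12 h and organoid ones (r = 0.02), so the numbers were not taken as pairs. Figures were drawn with matplotlib 3.10.9.

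The 29 genes and the 16 gene lists were chosen with earlier results of these data known. Named with values in every library were genes that passed in any comparison and 13 genes whatever their result (Ift88, Ift20, Ift140, Bbs1, Bbs2, Bbs4, Arl13b, Kif3a, Kif3b, Dync2h1, Tulp3, Cep164 and Cys1); from the lists came up to 2 passing genes by size of change in organoids against fresh cells, with Epcam, Krt19, Mki67, Cdk1, Pkhd1, Foxj1 and Rfx3. Alternatives were other pseudocounts and filters, centring, quantile normalization, library weights, fits on the compared groups, a replicate block and leaving out libraries.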

Additional observations from a re-analysis of the deposited data

Results flagged for a closer look

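Bbs12 stood out because its change from fresh cells differed between organoids and 12 h cultures, in a direct test of that difference. The difference, organoids less 12 h on the log2(RPKM + 1) scale, was 2.42 (SE 0.38, limma adjusted p = 0.0380; 0.0289 to 0.186 over 14 alternatives). Against fresh cells the fitted difference was 1.61 in organoids, with 4.39 and 4.43 RPKM, and −0.81 at 12 h, with 0 and 0.0189 RPKM, where fresh cells had 1.08 and 0.519 RPKM. With 2 libraries at most in a group, no library was tested for standing apart from its group.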

How the results depend on the processing

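Counts of the 29 genes called depended on the fit. For organoids against fresh cells (2 called) the count was 0 with a pseudocount of 0.1, without a filter and with centred libraries, 1 with a pseudocount of 5, a mean of at least 5 RPKM, quantile normalization, library weights and only the groups compared, and 0 to 1 with a library left out. For 12 h against fresh cells (0 called) it was 1 with centred libraries, 2 with library weights, 1 with only the groups compared and 0 to 1 with a library left out. For organoids against 12 h (1 called) it was 0 with a pseudocount of 5, without a filter, with a mean of at least 5 RPKM, library weights, only the groups compared and any library left out. For the 24 h library (0 called) it was 4 with a pseudocount of 0.1, 2 with 5, 1 with a mean of at least 5 RPKM, 4 with centred libraries, 1 with quantile normalization, 14 with library weights, 19 with only the groups compared and 0 to 5 with a library left out; for the library titled 48h (0 called) 1 with a pseudocount of 5, 4 with library weights and 6 with only the groups compared. For later against first-day cultures (1 called) it was 2 with a pseudocount of 0.1, 0 with a mean of at least 5 RPKM, where Bbs12 was not tested, 0 with only the groups compared and 0 to 1 with a library left out. The cause was not tested.

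With the replicate block, 1 of the 29 was called in organoids against fresh cells and 0 in organoids against 12 h; Bbs12 then had adjusted p of 0.0564 and 0.0504 and Ift43 0.0493. Centring moved the median log2 level of the 29 genes in organoid R1 to 2.44, against 2.12. Reversed signs concerned genes with no call in organoids against fresh cells: Kif3b was at 0.0056 with a pseudocount of 5, and with a library left out the log2 difference ran from −0.83 to 0.65 for Kif3b, from −0.75 to 0.032 for Bbs4, from −0.18 to 0.068 for Bbs1 and from −0.13 to 0.030 for Cys1. A count test on recovered reads was not run. With 2 libraries at most in a group, and 1 each at 24 h and 48h, the errors were wide: Ift52 in organoids against fresh cells, at a log2 difference of 1.78, and Ift74 at 12 h against fresh cells, at a log2 difference of 1.82, did not pass.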
